A study of Mus musculus with 18 samples.

Results

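Cdkn1a, the gene of the cell-cycle inhibitor p21, was followed with 9 further genes of the p53 and DNA damage response: Ccng1, Trp53inp1, Rrm2b, Mdm2, Btg2, Trp53, Bax, Gadd45a and Gadd45g. All probe sets whose platform symbol is 1 of these 10 names were taken, whatever their values. The 10 genes and the gene lists used below were themselves chosen with earlier results of these data known. Counts among them are therefore a description and no independent evidence. Of 22626 probe sets that are not controls, the 20380 with exactly 1 symbol were searched, and 691 with several symbols and 1555 with none were left out. The search gave 14 such probe sets for 8 of the 10 genes. No probe set used here carried the symbol Trp53 or Bax, and these 2 genes were not analysed here. All 8 measured genes were among the 8320 genes that passed the filter on low signal, and each was represented by its brightest probe set.

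The RNA came from the cerebellum of male mice aged 80 ± 5 days. They were wild-type, ApoD knock-out, or carried a human-ApoD transgene that the labels call a gain of function mutant, with over-expression in neurons. Apolipoprotein D (ApoD) is a lipid-binding lipocalin, and paraquat is a herbicide that generates superoxide. Each genotype received 30 mg/kg paraquat in 200 µl saline into the peritoneum, or the same volume of saline, and was killed 6 h later. Each of the 6 groups consisted of 9 mice, pooled by 3 onto 3 Affymetrix arrays, so that replicate error here is the variation among pools of mice. The labels used here do not give the promoter of the transgene or the strain of the mice.

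p53 is a transcription factor that is held low by Mdm2, itself a p53 target, and that is stabilised after DNA damage. Its targets halt the cell cycle (Cdkn1a, Btg2), supply nucleotides for repair (Rrm2b), promote cell death (Bax) or feed back on p53 (Mdm2, Ccng1, Trp53inp1). The Gadd45 proteins are small stress sensors that bind p21 and stress kinases, and Gadd45a is a p53 target while Gadd45g is better known for induction by cytokines and differentiation. Cdkn1a can also be induced without p53, for instance by glucocorticoid hormones and by FoxO factors. The comparisons therefore asked whether Cdkn1a moved with the other p53 targets after paraquat, and whether ApoD genotype altered that.

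The 250 bases upstream of the annotated starts are shown for Cdkn1a, because it has 2 starts that differ in the p53 motif, and for Ccng1 and Gadd45g, as a classic p53 target and the other gene that changed in both wild-type and knock-out. The sequences are RefSeq's on GRCm38.p6, read in the direction of the gene, and capitals mark matches to the p53 half-site.
Cdkn1a first start, chr17:29090729-29090978, plus strand: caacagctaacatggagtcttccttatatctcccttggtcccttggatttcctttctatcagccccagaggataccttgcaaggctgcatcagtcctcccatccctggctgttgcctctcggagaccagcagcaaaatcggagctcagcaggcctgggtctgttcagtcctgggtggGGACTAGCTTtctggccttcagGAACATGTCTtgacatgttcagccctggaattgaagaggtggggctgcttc
Cdkn1a second start, chr17:29093519-29093768, plus strand: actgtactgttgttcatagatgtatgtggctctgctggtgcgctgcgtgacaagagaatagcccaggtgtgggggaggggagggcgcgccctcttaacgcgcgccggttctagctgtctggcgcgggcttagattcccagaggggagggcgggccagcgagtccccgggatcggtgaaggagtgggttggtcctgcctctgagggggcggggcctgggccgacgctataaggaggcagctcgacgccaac
Ccng1, chr11:40755287-40755536, minus strand: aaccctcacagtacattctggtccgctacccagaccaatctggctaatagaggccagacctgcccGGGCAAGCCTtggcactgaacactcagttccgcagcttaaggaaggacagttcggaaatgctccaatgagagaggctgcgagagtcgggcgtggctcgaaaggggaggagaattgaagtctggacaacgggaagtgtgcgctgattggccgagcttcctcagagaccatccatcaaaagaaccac
Gadd45g, chr13:51846425-51846674, plus strand: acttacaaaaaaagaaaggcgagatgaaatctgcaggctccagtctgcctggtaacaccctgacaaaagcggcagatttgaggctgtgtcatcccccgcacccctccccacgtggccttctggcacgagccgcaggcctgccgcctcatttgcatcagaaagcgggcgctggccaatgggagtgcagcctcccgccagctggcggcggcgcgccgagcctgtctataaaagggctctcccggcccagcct

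The p53 response element was searched on both strands as a pair of exact half-sites with a gap of 0 to 13 bases. The window of the first Cdkn1a start held 1 such pair, which spans 32 bases and lies 73 to 42 bases before the start, and such a match occurs in 0.0639% of 32851 upstream windows of the same length. Directly after the second half-site of this pair follow the letters tgacatgttc. They miss the half-site pattern by 1 letter, so that this closer pair was not counted. The window of the second start held no half-site, and neither did those of Gadd45g and Btg2, while the windows of Ccng1, Mdm2, Gadd45a, Trp53 and Bax held 1 half-site each, against 7.13% of all windows. The Gadd45g window held TATAAA 27 to 22 bases before the start, a match found in 12.4% of windows. GGGCGG, found in 32.7%, occurred at 2 positions upstream of the second Cdkn1a start. Neither Cdkn1a window held the glucocorticoid response palindrome, AGAACA and TGTTCT with 3 bases between (0.00913% of windows), its shorter core ACANNNTGT (5.84%) or the FoxO motif GTAAACA (3.17%), and among the windows of the other measured genes only that of Mdm2 held the last of these. These matches describe the letters of the windows, and the arrays do not tell which Cdkn1a start was used. RefSeq windows were at hand for 8 of the 10 genes, and Trp53inp1 and Rrm2b are named only.

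All arrays but 1 had a median log2 signal between 7.1 and 7.15 and a mean correlation with the others between 0.986 and 0.993. One array, the second of the knock-out under paraquat, stood apart with a median of 6.98 and a mean correlation of 0.971, and the knock-out changes of the measured genes are given with and without it. Apod read 12.38 to 12.76 on the wild-type arrays, 8.22 to 8.50 on knock-out saline and 9.16 to 9.83 on knock-out paraquat arrays, and 12.13 to 12.35 on transgenic arrays. The mouse Apod signal was thus low in the knock-out and not raised in the transgenic, and whether its probes read the human transcript is not stated. Cerebellar markers were high, with means of 11.3 to 11.7 over 7 granule neuron genes and 11.8 to 12.2 over 8 Purkinje neuron genes. Markers of the choroid plexus, which secretes cerebrospinal fluid, averaged 8.23 to 8.84 over 5 genes on wild-type and knock-out arrays but 6.61 to 8.39 on transgenic arrays.

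In wild-type cerebellum paraquat raised 3 of the 8 measured genes and lowered none, where 2% of all genes tested were called in either direction and 1.53% were called higher. The 3 were Cdkn1a, Gadd45g and Trp53inp1. A gene is called at an adjusted p under 0.05 in limma's moderated test, adjusted by Benjamini-Hochberg over all 8320 genes. The signals are log2 values, so that a difference of 1 is a doubling. The median log2 change of the 8 genes was 0.47, and 0.39 without Cdkn1a, beside 0.02 for all genes tested.

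In wild-type, Cdkn1a read 8.26, 8.39 and 8.69 under saline and 10.96, 11.08 and 11.08 under paraquat. Every paraquat array lay far above every saline array, and the paraquat arrays were close together. The rise was 2.59 (SE 0.22, adjusted p = 5.3e-07, n = 3 and 3 pools), a 6.04-fold change. Among the 8320 changes, that of Cdkn1a ranked 2 from the highest. Gadd45g ranked 33, Trp53inp1 34, Gadd45a 95, Ccng1 214, Btg2 391, Rrm2b 1026 and Mdm2 7148. A second, dimmer Cdkn1a probe set rose by 1.83, from a mean of 6.36 to 8.19.

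In the knock-out, Cdkn1a read 8.45, 8.42 and 8.44 under saline and 10.92, 10.80 and 10.62 under paraquat. The groups did not overlap, and the saline arrays were nearly identical. The rise was 2.35 (SE 0.22, adjusted p = 3.0e-06), or 5.08-fold, and the dimmer probe set rose by 1.49. Leaving out the second paraquat array gave a rise of 2.34 (SE 0.25, adjusted p = 4.9e-05). The effect in the knock-out minus that in wild-type was -0.25 (SE 0.31, adjusted p = 0.87), with a 95% interval of -0.89 to 0.39.

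In the transgenic, Cdkn1a read 8.99, 9.0 and 8.59 under saline and 10.24, 9.68 and 8.88 under paraquat. The first and second paraquat arrays lay above all 3 saline arrays, and the third lay within their range. The mean change was 0.74 (SE 0.22, unadjusted p = 0.0029, adjusted p = 1.0), a fold of 1.67 with a 95% interval of 0.28 to 1.19 on the log2 scale. Without the third transgenic paraquat array the change was 1.10 (SE 0.16, adjusted p = 0.0090). No gene of the 8320 was called by limma in this comparison, where 0% was the background. An unadjusted p under 0.05 was found for 118 genes, 1 of them a measured member of the set. These are a smaller share of the 8320 genes than the 0.05 expected if no gene changed.

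The paraquat effect on Cdkn1a in the transgenic minus that in wild-type was -1.86 (SE 0.31, adjusted p = 0.012), a fold that was smaller by a factor of 3.62. This test called 0.18% of all genes, and 2 of the 8 genes here, Cdkn1a and Gadd45g. The adjusted p of Cdkn1a became 0.051 when either the second wild-type saline array or the second transgenic saline array was left out, and 0.0048 without the third transgenic paraquat array. Against the knock-out the difference was -1.61 (SE 0.31, adjusted p = 0.051), which passed the threshold when the third array of knock-out paraquat or of transgenic saline, or the first or the third array of transgenic paraquat, was left out, with values of -1.93 to -1.25. In that comparison 0 of the 8 genes were called by limma on all arrays, with 2 at an unadjusted p under 0.05, while 0.0481% of all genes were called and 0.0361% were lower. Under paraquat all transgenic Cdkn1a values lay below all wild-type values, with a difference of -1.44 (SE 0.22, adjusted p = 3.0e-04), while under saline the groups overlapped, with a difference of 0.41 (SE 0.22, adjusted p = 0.26).

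**Figure D1:**
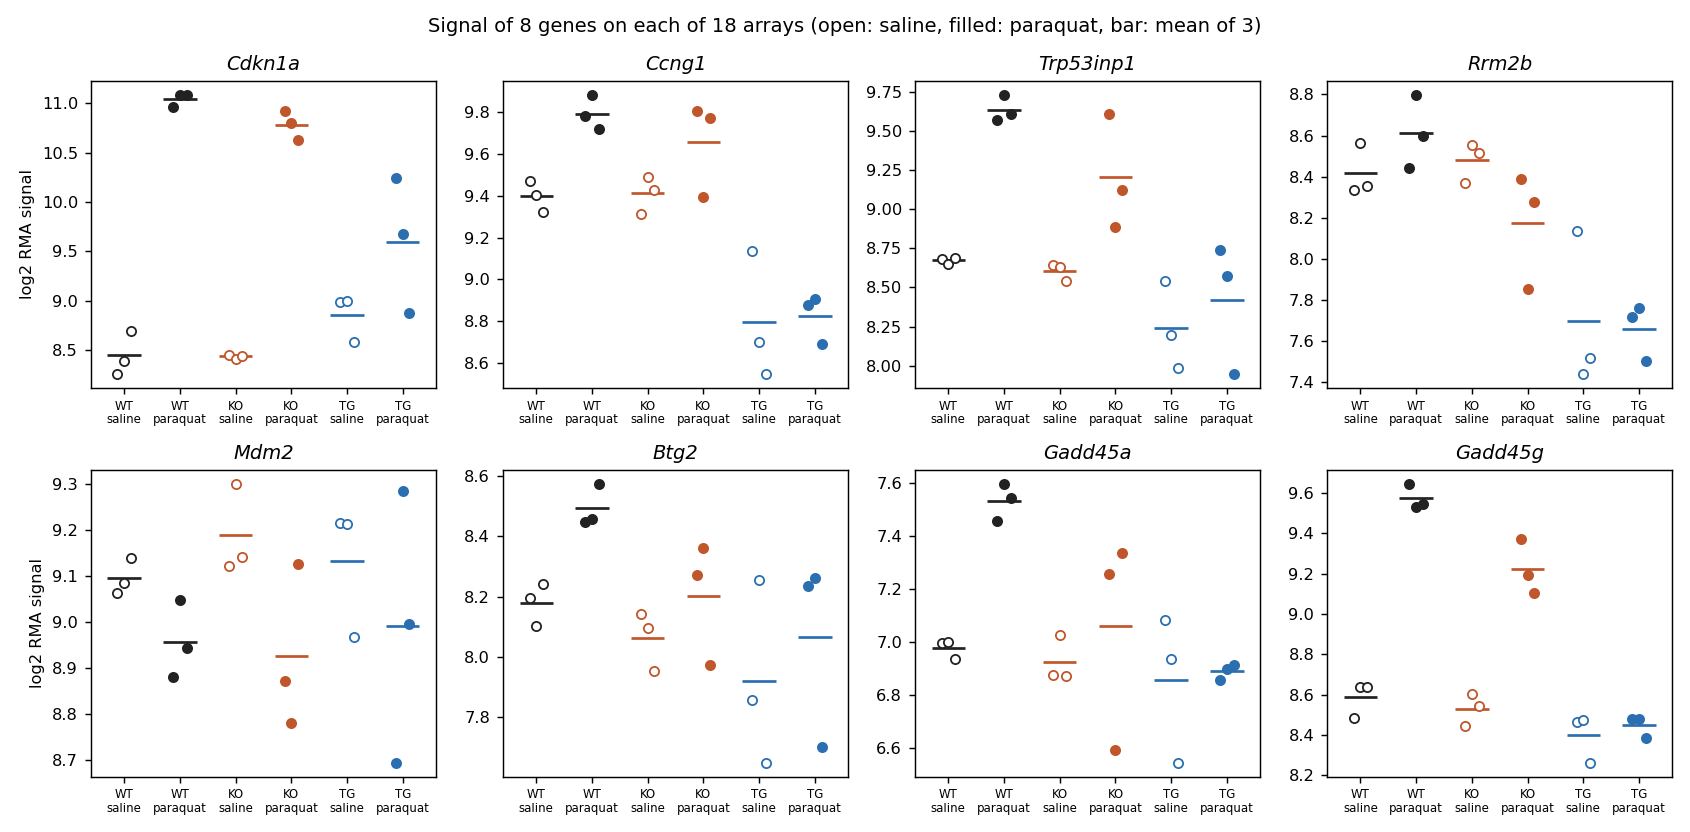
The log2 signal of the 8 measured genes on each of the 18 arrays, by genotype (WT wild-type, KO knock-out, TG transgenic) and treatment; each point is 1 array and each bar the mean of 3. Cdkn1a lies between 10.62 and 11.08 on all wild-type and knock-out paraquat arrays and between 8.88 and 10.24 on the transgenic ones, while Gadd45g separates wild-type and knock-out paraquat arrays from all others.

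Gadd45g, a stress sensor that binds p21 and activates the kinase Map3k4, read 8.48, 8.64 and 8.64 under saline and 9.65, 9.53 and 9.55 under paraquat in wild-type. In the knock-out it read 8.44, 8.60 and 8.54 under saline and 9.37, 9.20 and 9.10 under paraquat. Neither pair of groups overlapped. The rise was 0.99 (SE 0.10, adjusted p = 4.9e-06) in wild-type, a fold of 1.98, and 0.69 (SE 0.10, adjusted p = 3.9e-04) in the knock-out, a fold of 1.62. The knock-out rise was 0.71 (adjusted p = 7.0e-04) with its second paraquat array left out.

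In the transgenic, Gadd45g read 8.47, 8.47 and 8.26 under saline and 8.48, 8.48 and 8.39 under paraquat. All 6 values were close to the saline values of the other genotypes, and the change was 0.05 with a 95% interval of -0.16 to 0.26. The effect in the transgenic minus that in wild-type was -0.94 (SE 0.14, adjusted p = 0.0041), and minus that in the knock-out -0.64 (SE 0.14, adjusted p = 0.13). Unlike for Cdkn1a, none of the 3 transgenic paraquat arrays stood above its saline mean by more than 0.08.

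Trp53inp1, a p53 target whose nuclear protein in turn promotes p53 activity, read 8.68, 8.65 and 8.69 under saline and 9.57, 9.73 and 9.60 under paraquat in wild-type. The groups did not overlap, and the rise was 0.96 (SE 0.18, adjusted p = 0.0057), a fold of 1.94. In the knock-out it read 8.64, 8.63 and 8.54 under saline and 9.61, 8.88 and 9.12 under paraquat. Every paraquat array again lay above every saline array, but the paraquat values were spread, and the change of 0.60 (SE 0.18, adjusted p = 0.093) was not called. With the second of these arrays left aside it was 0.76 (SE 0.19, adjusted p = 0.047).

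In the transgenic Trp53inp1 read 8.54, 8.19 and 7.99 under saline and 8.74, 8.57 and 7.95 under paraquat. These groups overlapped, and the change was 0.18 with a 95% interval of -0.20 to 0.56. The effect in the transgenic minus that in wild-type was -0.78 (SE 0.26, adjusted p = 0.54). A second, dim Trp53inp1 probe set, which did not pass the filter, gave changes of 0.22, 0.22 and 0.24 in wild-type, knock-out and transgenic.

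Gadd45a, the p53 target of the Gadd45 family, read 7.0, 7.0 and 6.94 under saline and 7.46, 7.60 and 7.54 under paraquat in wild-type. The groups did not overlap, and the change of 0.55 (SE 0.16, adjusted p = 0.078) was not called. In the fit that leaves out the second knock-out paraquat array, the same wild-type change had an adjusted p of 0.0041. In the knock-out Gadd45a read 6.87, 7.02 and 6.87 under saline and 7.26, 6.59 and 7.34 under paraquat. The second paraquat array was the lowest of all 6, and the change was 0.14, or 0.37 (adjusted p = 0.14) without it. In the transgenic the change was 0.03 with a 95% interval of -0.29 to 0.36.

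Ccng1, which encodes cyclin G1, a p53 target that acts with Mdm2, read 9.47, 9.40 and 9.32 under saline and 9.78, 9.88 and 9.72 under paraquat in wild-type. The groups did not overlap, and the change of 0.39 (SE 0.14, adjusted p = 0.21) was not called. All 3 Ccng1 probe sets gave about this size in wild-type, 0.39, 0.42 and 0.40. In the knock-out Ccng1 read 9.31, 9.49 and 9.43 under saline and 9.81, 9.39 and 9.77 under paraquat, with overlap at the second paraquat array and a change of 0.25, or 0.38 (adjusted p = 0.20) without that array. The transgenic change was 0.03.

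Btg2, an antiproliferative p53 target that recruits the CCR4-NOT deadenylase, read 8.20, 8.10 and 8.24 under saline and 8.45, 8.46 and 8.57 under paraquat in wild-type. The groups did not overlap, and the change was 0.31 (SE 0.15, adjusted p = 0.52). In the knock-out and the transgenic the changes were 0.14 and 0.15, with overlap in both, and the knock-out change was 0.06 without the second paraquat array. A second probe set gave 0.23, 0.06 and -0.03.

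Rrm2b, the p53-inducible small subunit of ribonucleotide reductase, read 8.33, 8.56 and 8.35 under saline and 8.44, 8.80 and 8.60 under paraquat in wild-type. The groups overlapped, and the change was 0.19 with a 95% interval of -0.15 to 0.54. In the knock-out the change was -0.30 (SE 0.16, adjusted p = 0.34), or -0.15 without the second paraquat array, and in the transgenic -0.04.

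Mdm2, the ubiquitin ligase that p53 induces against itself, read 9.06, 9.08 and 9.14 under saline and 8.88, 9.05 and 8.94 under paraquat in wild-type. All paraquat values lay below all saline values by a small margin, and the change was -0.14 (SE 0.13, adjusted p = 0.92) with a 95% interval of -0.41 to 0.13. The knock-out gave -0.26 (SE 0.13, adjusted p = 0.30), or -0.19 without its second paraquat array, and the transgenic gave -0.14. A second Mdm2 probe set gave -0.20, -0.13 and -0.11. In wild-type the interval for Mdm2 thus stayed below a log2 change of 0.13, while that for Cdkn1a began at 2.14.

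**Figure D2:**
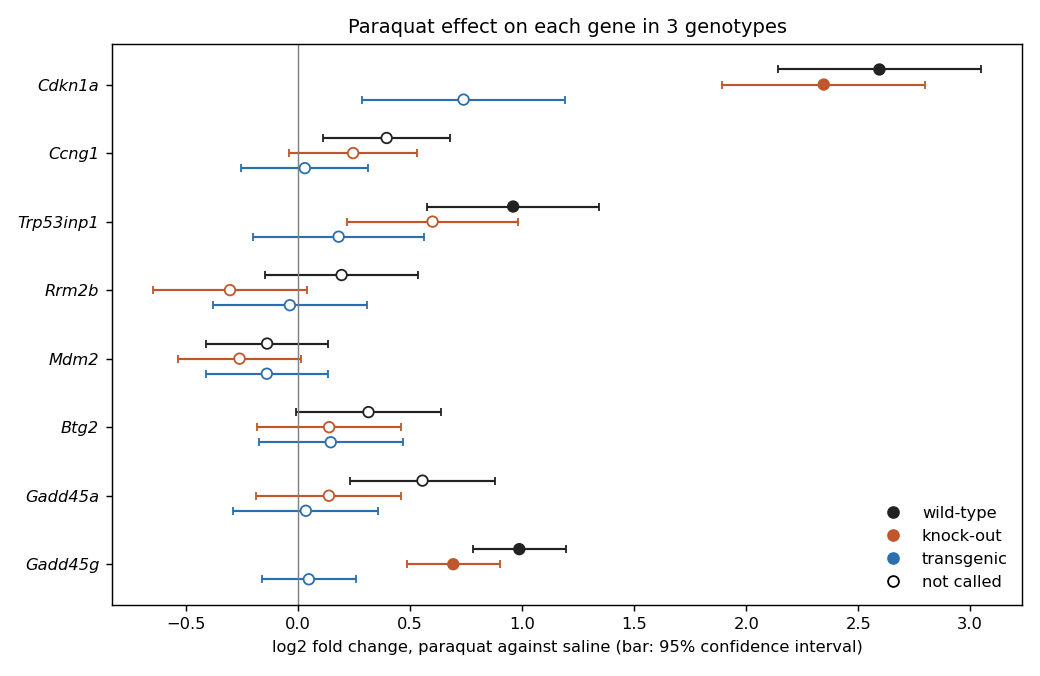
The log2 fold change of paraquat against saline for each of the 8 genes in 3 genotypes, with 95% confidence intervals; filled points are called at an adjusted p under 0.05 and open points are not. Cdkn1a lies at 2.59 in wild-type and 2.35 in the knock-out, Gadd45g and Trp53inp1 at 0.60 to 0.99 there, and Mdm2 below 0 in all 3.

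In the knock-out 2 of the 8 genes rose, Cdkn1a and Gadd45g, and none fell, where 2.26% of all genes were called, 0.793% higher and 1.47% lower. The median change of the 8 genes was 0.19, and 0.14 without Cdkn1a, beside -0.09 for all genes. With the second paraquat array left out, 3 rose, Trp53inp1 in addition, and the median was 0.37, beside 0.01 and 1.82% of all genes called. Between knock-out and wild-type 0 of the 8 genes were called by limma under saline, with 0 at an unadjusted p under 0.05 and 0.024% of all genes called. Under paraquat 0 were called, with 4 at an unadjusted p under 0.05 and 0.012% of all genes called. The effect of paraquat in the knock-out minus that in wild-type was negative for all 8, from -0.12 for Mdm2 to -0.50 for Rrm2b, beside a median of -0.12 over all genes. Omitting the second knock-out paraquat array brought several of these nearer to 0, Ccng1 from -0.15 to -0.02, Mdm2 to -0.05, Trp53inp1 from -0.36 to -0.20, Gadd45a from -0.42 to -0.18 and Rrm2b to -0.34, beside a median of -0.01 over all genes. On all arrays none of the 8 was called by limma, where 0% of all genes were called, and 1 of the 8 had an unadjusted p under 0.05. Averaged over the genotypes, Cdkn1a rose by 1.89 (SE 0.13), Trp53inp1 by 0.58 (SE 0.11, adjusted p = 0.0020) and Gadd45g by 0.58 (SE 0.06), and these 3 genes were called, where 4.89% of all genes were called in either direction and 2.01% higher. In the fit that omits the second knock-out paraquat array 5 were called, Ccng1 (0.27, adjusted p = 0.025) and Gadd45a (0.32, adjusted p = 0.0036) in addition.

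Cdkn1a therefore stood apart in size from the 7 other genes measured. Its log2 change exceeded theirs by 1.61 to 2.73 in wild-type, by 1.65 to 2.65 in the knock-out and by 0.56 to 0.88 in the transgenic, as a description of the fitted changes without a test between genes. Gadd45g was the nearest in wild-type and in the knock-out, Trp53inp1 in the transgenic, and Mdm2 or Rrm2b the farthest.

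A wider list of 43 p53 targets that were not members of the set gave 23 genes that were tested. In wild-type 1 was called, Sesn1, a stress-inducible inhibitor of mTORC1 signalling, which rose by 0.45 (SE 0.11, adjusted p = 0.026), and 3 had an unadjusted p under 0.05. The call for Sesn1 ended when any 1 of the 6 wild-type arrays was left out, with an adjusted p of up to 0.13. The median change of the 23 was 0.04 beside 0.02 for all genes, and the range was -0.23 to 0.45. The proapoptotic target Bbc3 changed by -0.01, the DNA repair gene Ddb2 by 0.21, Xpc by 0.32 and Perp by 0.38, none of them called.

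In the knock-out 0 of the 23 rose and 1 fell, Zmat3, an RNA-binding p53 target, by 0.64 on the log2 scale (SE 0.14, adjusted p = 0.019). Its call ended without the second knock-out paraquat array, and without the first or the second knock-out saline array. The median was -0.10 beside -0.09 for all genes, and 0.02 beside 0.01 with the second knock-out paraquat array left out. Set against the saline mean, the mean of the 23 was 0.04 and 0.05 on the first and the third knock-out paraquat array and -0.27 on the second. In the fit that omits the second, Sesn1 rose by 0.41 (SE 0.09, adjusted p = 0.020) and no other of the 23 was called. In the transgenic limma called 0 of the 23, with 0 at an unadjusted p under 0.05, and the median was -0.06 beside -0.03. Over 27 alternative settings the counts ranged from 0 to 4 higher in wild-type, from 0 to 7 higher and 0 to 2 lower in the knock-out, and from 0 to 1 higher in the transgenic.

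Regulators of p53 and its kinases did not pass the test after paraquat in any genotype, 0 of 13 tested by limma, with 0, 5 and 0 at an unadjusted p under 0.05 in wild-type, knock-out and transgenic. Of the Gadd45b gene, Gadd45 partners and related stress genes, 0 of 6 were called in any genotype, with 1, 0 and 0 at an unadjusted p under 0.05. Gadd45b itself, the third family member, changed by 0.39 in wild-type (adjusted p = 0.094), 0.04 in the knock-out and -0.14 in the transgenic, and its 3 probe sets ranged from 0.19 to 0.39 in wild-type. In the knock-out it read 7.91, 7.45 and 7.77 under paraquat beside a saline mean of 7.67, with the lowest value on the array that stood apart. The means of its other probe sets went from 6.55 to 6.70 and from 7.46 to 7.70 there. In the BTG and TOB family around Btg2 0 of 5 were called in any genotype, with 1, 1 and 0 at an unadjusted p under 0.05.

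Of 14 other cell-cycle genes tested, cyclins, their kinases and inhibitors, 0 rose in any genotype. Ccnd1, encoding cyclin D1, fell by 0.56 (SE 0.14, adjusted p = 0.040) in wild-type cerebellum. In the knock-out it fell by 0.65 (SE 0.14, adjusted p = 0.016). The wild-type call for Ccnd1 held under 13 of 27 alternative settings, and the knock-out call was lost without any 1 of the 3 saline arrays or without the second paraquat array. Most proliferation genes were too dim to be tested, and of the 6 of 20 that were tested limma called 0 in any genotype, with 0, 1 and 0 at an unadjusted p under 0.05. Of 10 BCL2 family genes 1 was called, proapoptotic Bid, which rose by 0.67 in wild-type (SE 0.17, adjusted p = 0.044) and kept its call under 10 of 25 settings.

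Genes of the glucocorticoid response moved in larger numbers. Of 23 tested, 18 rose in wild-type and 0 fell, with a median change of 1.31, and 16 rose in the knock-out, with a median of 1.12. The 2 that fell in the knock-out on all arrays were Nr3c1, the receptor gene, and the phosphatase gene Dusp1. The call for Nr3c1 (-0.53, adjusted p = 0.039) held under 10 of 27 settings, with an adjusted p of up to 0.26, and was lost under the replicate block, without any 1 of the 3 knock-out saline arrays and without the first or the second knock-out paraquat array. The 6 with the smallest adjusted p in wild-type were the kinase Sgk3 (2.38), the iron-sequestering lipocalin Lcn2 (2.46), the receptor co-chaperone Fkbp5 (2.5), the phagocytic receptor Mertk (1.31), the lipoprotein lipase inhibitor Angptl4 (1.78) and the sulfotransferase Sult1a1 (1.77). In the transgenic 0 of 23 were called by limma, with 7 at an unadjusted p under 0.05 and a median of 0.28. The list is known from earlier results of these samples to respond, so that its count is no independent evidence. Of 12 FoxO targets tested, 3 rose in both wild-type and knock-out and 0 in the transgenic, where 0 had an unadjusted p under 0.05. These were Foxo1 (1.23 and 0.93), Txnip, an inhibitor of thioredoxin (1.41 and 1.29), and the transcription factor gene Klf15 (0.72 and 0.74). Klf15 lost its call without the third wild-type paraquat array and, in the knock-out, without the second saline array.

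**Figure D3:**
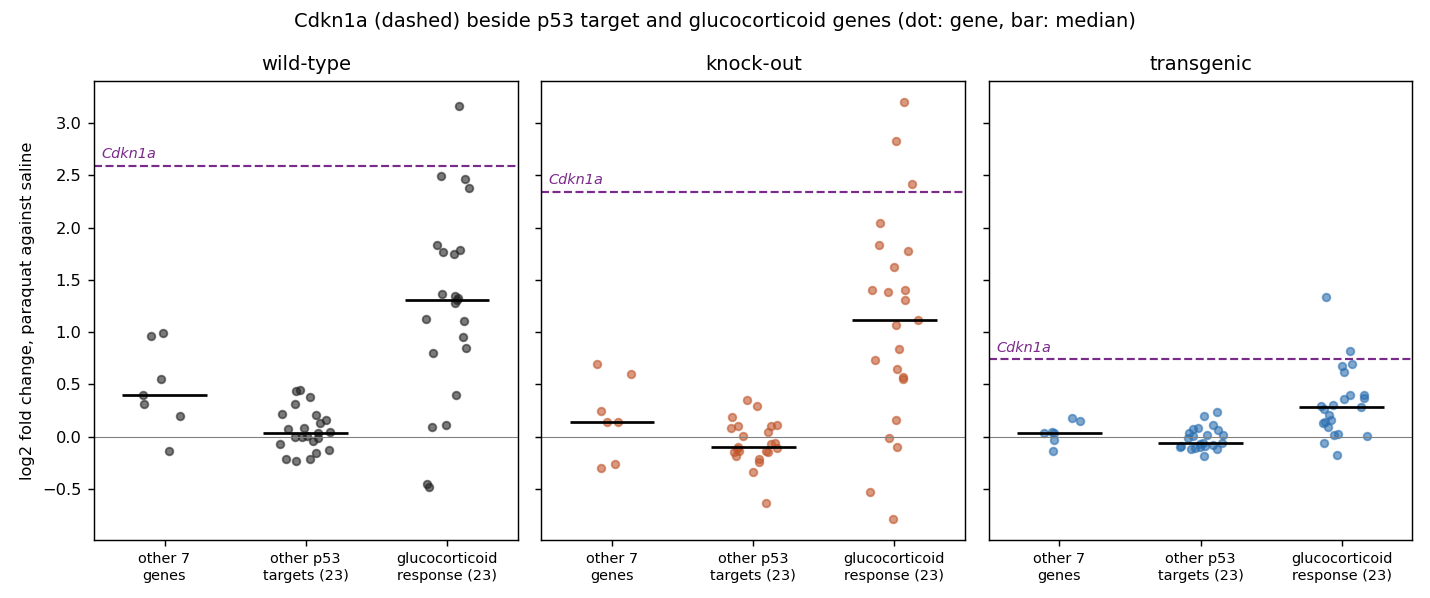
Log2 fold changes of paraquat against saline in 3 genotypes for the 7 other measured genes of the set, 23 other p53 targets and 23 glucocorticoid response genes; each dot is 1 gene, each bar a median and the dashed line Cdkn1a. The p53 target medians are 0.04, -0.10 (0.02 without the second knock-out paraquat array) and -0.06. The glucocorticoid medians are 1.31, 1.12 (1.25 without that array) and 0.28, and Cdkn1a lies in the upper part of the glucocorticoid range in all 3 genotypes.

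The genes whose pattern over the 18 arrays was most like that of Cdkn1a, by Pearson's r among 8319 other genes, were Fkbp5 (0.98), Smim3 (0.97), Plin4 (0.96), Angptl4 (0.96), Pnpla2 (0.96) and Lrg1 (0.96). The arrays fall into groups that share genotype and treatment, and r is given as a description. Of the members, Gadd45g came at place 59 (0.86), Trp53inp1 at 99 (0.80), Btg2 at 296 (0.62), Gadd45a at 359 (0.59), Ccng1 at 538 (0.51), Rrm2b at 2364 (0.16) and Mdm2 at 7897 (-0.56). When that array, the second of the knock-out under paraquat, was left out, the r of Gadd45a was 0.79 and that of Gadd45g 0.86. With each group's mean subtracted, so that only the variation among replicate arrays is left, the order was another. There r with Cdkn1a was 0.78 for Fkbp5, 0.75 for Angptl4 and Trp53inp1, 0.74 for Plin4, 0.73 for Btg2, 0.66 for Pnpla2, 0.59 for Smim3, 0.50 for Gadd45g and 0.48 for Lrg1, and it was 0.30 for Ccng1, 0.29 for Rrm2b, 0.07 for Gadd45a and -0.20 for Mdm2. The SD of Cdkn1a within a group was 0.68 under transgenic paraquat and 0.02 to 0.24 in the other groups. These r therefore lean on the transgenic paraquat arrays and do not show likeness within every group.

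The changes on single arrays showed the same order in the transgenic. Set against the mean of the transgenic saline arrays, Cdkn1a was higher by 1.38, 0.82 and 0.02 on the first, the second and the third paraquat array. Fkbp5 changed by 1.22, 0.96 and -0.11, and the mean of the glucocorticoid list changed by 0.61, 0.46 and -0.11. Trp53inp1 changed by 0.50, 0.33 and -0.29, whereas Gadd45g stayed at 0.08, 0.08 and -0.01 and the mean of the other p53 targets at 0.06, -0.01 and -0.10. The fitted effects on Fkbp5 were 2.5 in wild-type, 2.42 in the knock-out and 0.69 in the transgenic, and the transgenic effect minus the wild-type effect was -1.81 (SE 0.34, adjusted p = 0.026), next to -1.86 for Cdkn1a. The 3 transgenic paraquat pools thus differed from each other in Cdkn1a and Fkbp5 by more than wild-type pools did, where Cdkn1a was higher by 2.51 to 2.64. The choroid plexus marker mean was 8.39, 8.10 and 7.37 on the same 3 arrays, against 7.42, 7.86 and 6.61 on the transgenic saline arrays, and its part in the result was not tested. In tissue RNA, fewer cells of a type and less RNA per cell cannot be told apart.

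**Figure D4:**
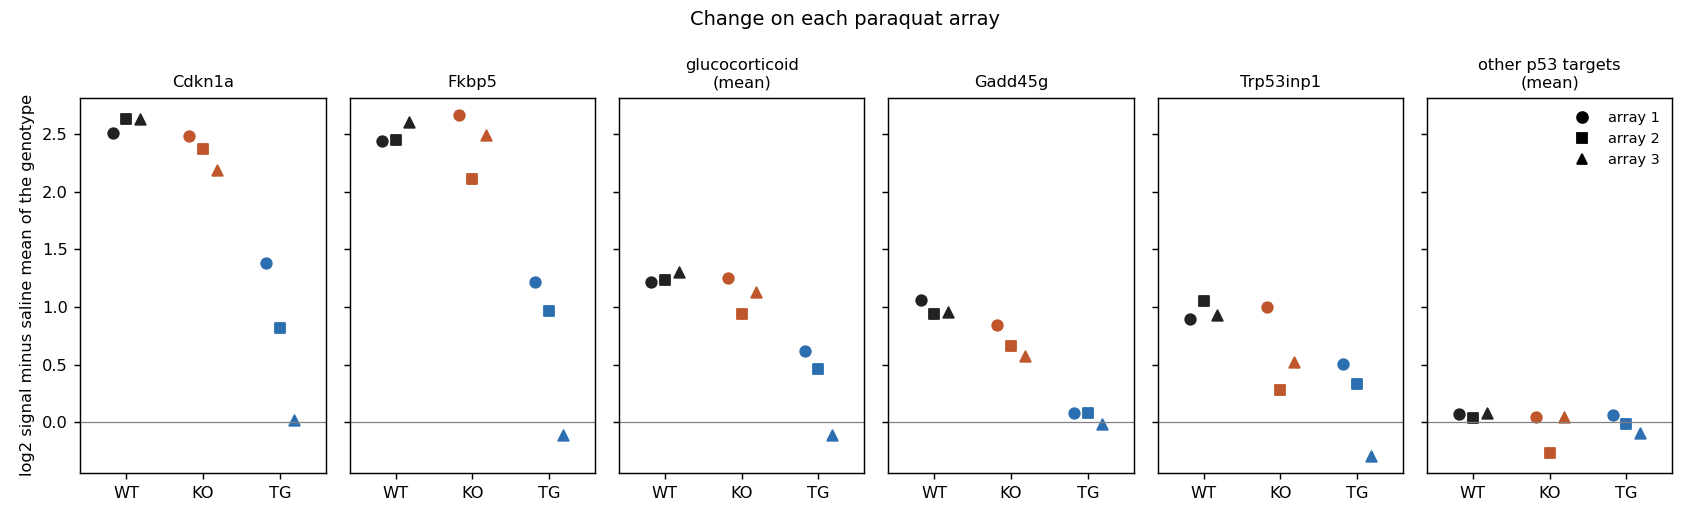
The log2 signal on each paraquat array minus the saline mean of its genotype (WT wild-type, KO knock-out, TG transgenic) for 4 genes and 2 list means; symbols give the array number. On the third transgenic array Cdkn1a, Fkbp5 and the glucocorticoid mean lie at 0.02, -0.11 and -0.11, while Gadd45g lies within 0.08 of 0 on all 3 transgenic arrays.

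The means of the endothelial and microglial marker lists were lower beside these changes in both wild-type and knock-out. For microglia in wild-type the margin was small. The endothelial mean over 6 genes was 8.16 to 8.31 under saline and 7.92 to 7.95 under paraquat in wild-type, and Tek fell by 0.83 and 0.91 and Cldn5 by 0.67 and 0.62 in wild-type and knock-out. The mean of 8 microglial markers was 8.06 to 8.22 under saline and 8.02 to 8.03 under paraquat in wild-type, and 8.08 to 8.13 and 7.68 to 7.97 in the knock-out. Among the microglial markers, the chemokine receptor gene Cx3cr1 fell by 0.75 in wild-type and by 0.91 in the knock-out. The falls of Tek, Cldn5 and Cx3cr1 are larger than those of their list means and do not stand for the other markers. The part of the endothelium and of microglia in the changes of Cdkn1a and Gadd45g was not tested.

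Between genotypes, the transgenic differed from wild-type mostly downwards. Under saline 2 of the 8 were called, both lower, Ccng1 by 0.60 on the log2 scale and Rrm2b, where 6.36% of all genes were called and 4.38% were lower. Under paraquat 6 of the 8 were called, all lower, where 19% of all genes were called, 14.3% lower and 4.64% higher. They were Gadd45g (-1.13, adjusted p = 1.4e-06), Ccng1 (-0.97, adjusted p = 1.8e-04), Cdkn1a (-1.44), Trp53inp1 (-1.21, adjusted p = 3.0e-04), Rrm2b (-0.95, adjusted p = 9.0e-04) and Gadd45a (-0.64, adjusted p = 0.0075). Btg2 followed at -0.43 (adjusted p = 0.058), and Mdm2 differed by 0.03 with a 95% interval of -0.24 to 0.31. The median of the 8 was -0.96, beside -0.06 for all genes.

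The 6 genes did not share 1 pattern. Rrm2b read 8.14, 7.44 and 7.52 under saline and 7.72, 7.76 and 7.50 under paraquat in the transgenic, lower than every wild-type array of the same treatment. Its difference from wild-type was -0.72 under saline (SE 0.16, adjusted p = 0.015) and -0.95 under paraquat (SE 0.16). Ccng1 read 9.14, 8.70 and 8.55 under saline and 8.88, 8.91 and 8.69 under paraquat in the transgenic, again below every wild-type array. On the brightest probe set of each, these 2 genes were thus lower in the transgenic with and without paraquat, though another Ccng1 probe set was not. For Cdkn1a and Gadd45g, in contrast, the test of the paraquat effect itself passed. The 2 saline calls were lost when the first or second wild-type saline array, or the second or the third transgenic saline array, was left out.

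The probe sets of Ccng1 disagreed on this contrast. Against wild-type under saline they gave -0.60, 0.33 and -0.33, and under paraquat -0.97, 0.08 and -0.51, so that the level of Ccng1 in the transgenic depends on the probe set, while its change after paraquat in wild-type does not. The 2 Cdkn1a probe sets agreed in direction, with 0.41 and 0.29 under saline and -1.44 and -1.05 under paraquat. The dim Trp53inp1 probe set showed no such difference (-0.06 and -0.04), and the second Mdm2 and Btg2 probe sets gave 0.39 and -0.03 under paraquat. Rrm2b, Gadd45a and Gadd45g had 1 probe set each.

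**Figure D5:**
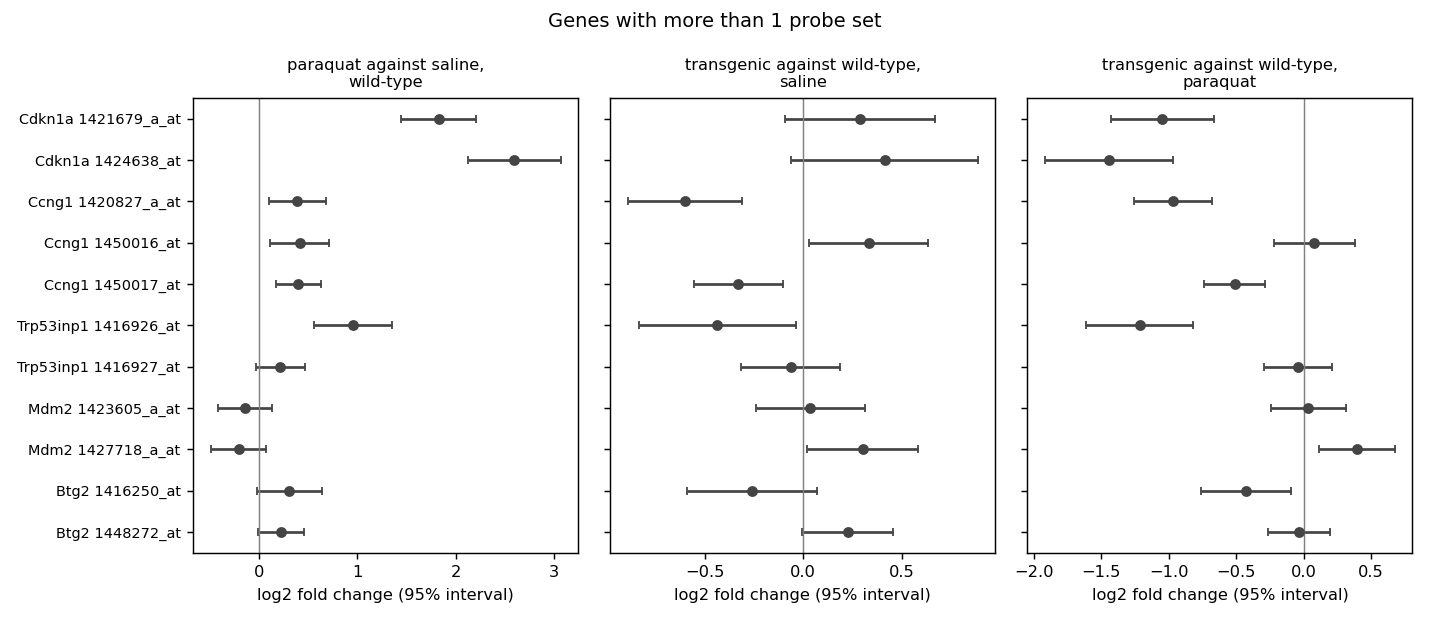
Log2 fold changes with 95% confidence intervals for every probe set of the 5 measured genes that have more than 1, in 3 comparisons. The 3 Ccng1 probe sets lie together at 0.39 to 0.42 for paraquat in wild-type and apart at -0.60 to 0.33 for transgenic against wild-type under saline.

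The counts of other list genes in the transgenic against wild-type are to be read beside the shares of all genes called there, 19% under paraquat (14.3% lower) and 6.36% under saline (4.38% lower). Under paraquat 3 of the 23 other p53 targets were lower, Perp (-0.82), Sesn1 (-0.59) and Ddb2 (-0.41), and 0 were higher, with a median of -0.07 beside -0.06 for all genes, so that this count was near the background. Under saline Perp (-0.55) and Polk (-0.46) were lower and Ak1 (0.55) was higher, and the calls of Polk and Ak1 held under 12 of 26 and 13 of 27 settings. Of the regulators 0 of 13 were called under saline, with 3 at an unadjusted p under 0.05, and the damage kinase Atr (-0.70) and the deacetylase Sirt1 (-0.51) were lower under paraquat. Gadd45b (-0.78) and Ddit3 (-0.48) were lower under paraquat, although the 2 other Gadd45b probe sets gave -0.20 and 0.07, and Ddit3 (-0.37) was lower under saline. Around Btg2, the deadenylase subunit Cnot7 was lower under saline (-0.83) and paraquat (-0.89), and Btg1 was higher under paraquat (0.47). Among cell-cycle genes, the inhibitor Cdkn1b, which encodes p27, was lower under saline (-0.86) and paraquat (-0.90), and Rb1 (-0.64) and Pcna (-0.38) were lower under paraquat. In the BCL2 family Bid (-0.80), Mcl1 (-0.52) and Bnip3 (-0.47) were lower under paraquat, and 0 of 10 were called under saline, with 1 at an unadjusted p under 0.05. The calls of Sirt1, Btg1 and, under saline, Ddit3 held under 18, 14 and 14 of 27 settings, and those of Perp and Cdkn1b under saline and of Ddb2, Atr, Pcna, Rb1, Mcl1 and Bnip3 under paraquat in all but 1 to 4. Of the 23 glucocorticoid genes 17 were lower and 0 higher under paraquat, and 0 were called under saline, with 3 at an unadjusted p under 0.05. Of the 12 FoxO targets 5 were lower under paraquat, Txnip (-1.32), Foxo1 (-1.02), Klf15 (-0.68), Bcl6 (-0.51) and Sesn3 (-0.42), and 1 under saline, Sesn3 (-0.51).

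Technical readings also differed on the transgenic arrays. The 18S ribosomal RNA control read 6.15 to 7.52 on them and 7.35 to 8.42 elsewhere, and the excess of the 3' over the 5' pyruvate carboxylase probe set was 1.82 to 2.88 on them and 2.25 to 3.16 elsewhere. Both readings were lowest on the third transgenic saline and the third transgenic paraquat array. There 18S read 6.15 and 6.20, beside 6.33 on the second transgenic paraquat array. The excess was 1.82 and 1.95 there and 2.63 to 2.88 on the other transgenic arrays. Markers of meninges and fibroblasts averaged 8.97 to 9.18 over 7 genes on transgenic arrays, 9.32 to 9.60 on wild-type and 9.17 to 9.45 on knock-out arrays. Markers of neighbouring brain regions averaged 7.48 to 7.72 over 3 genes on transgenic saline arrays and 7.11 to 7.35 on wild-type saline arrays, and 7.32 to 7.69 and 7.1 to 7.45 under paraquat. The part of RNA quality, of the choroid plexus and of these other tissues in the transgenic values was not tested.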

How the data were processed

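Expression was measured on 18 Affymetrix 3' arrays, 3 for each of 6 groups, with saline taken from the treatment protocol for titles that do not name paraquat. The deposited values are log2 signals, 1 per probe set and array, summarised with RMA per the submitters' processing notes, which name no version. RMA includes quantile normalisation, which is meant to remove differences in overall signal between arrays. A difference remained in these values, with medians of 7.1 to 7.15 except for 6.98 in replicate 2 of knock-out paraquat. No depth applies, and the number of arrays limits the precision. Probe sets were named by GEO's platform annotation, where symbols may be out of date, with 20380 of 22626 probe sets carrying 1 symbol.

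The members and gene lists were chosen with earlier results of these data known. One probe set per gene, the brightest, was kept if at least 3 arrays had it at or above their own 40th percentile, giving 8320 genes. limma 3.58.1 in R 4.3.3 fitted 6 group means to all 18 arrays with 12 residual degrees of freedom, and p-values are two-sided. The fit was tested on simulated data. Named are all members, list genes called in a comparison described (up to 6 a list and comparison), the 6 genes most like Cdkn1a, and Apod. Probe sets were compared in a fit of all probe sets. Alternatives were quantile normalisation, no filter, a 60th percentile filter, the mean of probe sets, all probe sets, array weights, trended and robust variance, only the groups compared, a replicate block and leaving out each array. Same-numbered arrays come from randomly pooled mice, and their deviations from the group means correlated between -0.34 and 0.42 (median 0.05).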

Additional observations from a re-analysis of the deposited data

Results flagged for a closer look

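The paraquat effect on Cdkn1a differed between genotypes by a test of the difference itself. In the transgenic minus wild-type it was -1.86 (limma, SE 0.31, adjusted p = 0.012), with 2.59 in wild-type and 0.74 in the transgenic. The paraquat effect on Gadd45g differed in the same test by -0.94 (limma, SE 0.14, adjusted p = 0.0041), with 0.99 in wild-type and 0.05 in the transgenic. The 2 differences rest on the same 12 arrays.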

How the results depend on the processing

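No result for the 8 genes reversed its direction past the threshold. Of the single changes and differences that answer no comparison, 2115 values kept their direction and side of the threshold, 41 passed it newly, 10 lost it and 10 moved. Array weights called 6 genes after paraquat in wild-type, 6 in the knock-out (5 higher, and Mdm2 lower at -0.27), 1 in the transgenic and 6 on average, 4 in the transgenic against wild-type under saline (3 lower, and Cdkn1a higher at 0.58), and 4 each, all lower, for the effect in the transgenic minus wild-type and minus knock-out. There Cdkn1a changed by 0.70 in the transgenic (adjusted p = 0.0075), and by -1.72 in the transgenic minus knock-out. That setting called 1059, 2173 and 409 of all genes after paraquat in the 3 genotypes, against 166, 188 and 0 in the main analysis. Fitting only the groups compared called 6 genes in wild-type (849 of all genes), 1 in the transgenic against wild-type under saline and 1 in the transgenic minus wild-type, where Cdkn1a had -1.86 with an adjusted p of 0.051. The mean of probe sets called 1 gene in the transgenic against wild-type under saline, and 1 in the transgenic minus knock-out, Cdkn1a at -1.30. The 60th percentile filter, which dropped Gadd45a, and trended and robust variance each called 1 there, Cdkn1a at -1.61. Quantile normalisation moved the median knock-out change from -0.09 to 0.00 and the split of knock-out calls from 66 higher and 122 lower to 132 and 127.

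Leaving out 1 array in turn gave 3 to 4 called genes in wild-type, 2 to 3 in the knock-out, 0 to 1 in the transgenic (Cdkn1a, 0.42 to 1.10), 3 to 5 on average, 0 to 3 and 6 to 7 in the transgenic against wild-type under saline and paraquat, 1 to 2 in the transgenic minus wild-type (Cdkn1a, -2.18 to -1.50) and 0 to 1 in the transgenic minus knock-out (Cdkn1a, -1.93 to -1.25). The replicate block gave 3, 2 and 0 called genes after paraquat in wild-type, knock-out and transgenic and 2 in the transgenic minus wild-type, as without it, and 7 in place of 6 in the transgenic against wild-type under paraquat, through Btg2 (adjusted p = 0.038). The main fit did not take the numbers to pair the arrays. Of 45 same-numbered pairs 17 correlated above 0.1, with a median of 0.05, and of 90 differently numbered pairs 25 did, with a median of -0.03. Of 18 arrays 8 correlated best with their own number. These values do not decide whether same-numbered arrays belong together. For list genes called in a comparison described, 2197 values under the same alternatives, chosen after seeing the data, kept the call and 229 lost it. The list values that omit the second knock-out paraquat array were likewise added after seeing the data.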
